A study of Mus musculus with 4 samples.

Results

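The genes described here are 10 genes of the amino acid response that the transcription factor ATF4 directs: *Atf4*, *Ddit3*, *Trib3*, *Sesn2*, *Asns*, *Psat1*, *Phgdh*, *Shmt2*, *Slc7a5* and *Slc3a2*. They were chosen by gene symbol, and 10 of the 17457 genes of the expression table carried one of these symbols. All 10 had an FPKM (fragments mapped to a transcript, set relative to its length and to the library's total) of at least 1 in at least 2 libraries, as did 11056 of the 17457 genes, and these were tested. Expression was measured by RNA-sequencing in mesenchymal stem cells (MSCs) from the long bones of C57BL/6J females. There were 2 libraries of leukemia-associated MSCs (L-MSCs) and 2 libraries of control MSCs. The L-MSC mice were injected into a vein, at 7 to 9 weeks of age, with 1000 PER-M60 cells. PER-M60 is a single line of BCR-ABL1+ B-cell acute lymphoblastic leukemia (B-ALL) that carries the retrovirus MSCV-BCR-ABL1-IRES-mCherry, so that L-MSCs stand for mice with 1 leukemia line at the onset of symptoms. The control mice received phosphate-buffered saline (PBS). Each library pooled the cells of 4 to 7 mice. The marrow was flushed out and discarded, the long bones were digested, and the sort took cells that stained for Sca-1 and PDGFRα and lacked the 3 antigens CD45, TER119 and CD31.

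ATF4 is a basic leucine zipper factor that rises when eIF2α is phosphorylated, by GCN2 when amino acids run short, by PERK when the endoplasmic reticulum is stressed, or by related kinases. Its protein level is set largely by translation, through upstream open reading frames of its mRNA, so that *Atf4* mRNA reads only part of the response. Together with C/EBP family partners, ATF4 binds a composite element, the C/EBP-ATF response element, and raises genes of amino acid synthesis, amino acid uptake and tRNA charging.

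The core of that element was read as TGATGNAA, or TTNCATCA on the other strand, in promoter windows that reach from 250 bases before to 50 bases after the annotated start of each gene (RefSeq, GRCm38.p6). A window was at hand for 9 of the 10 genes, and *Slc7a5* was not matched. *Asns* and *Trib3* held the core, which is 22.2% of the 9, against 4.51% of 27025 genes with a window. An element outside the window would not be seen, so a window without the core does not show that the gene lacks the element. These stretches are shown because they place a match to the core in genes whose RNA is described here, and a match alone does not show a working element. Capitals mark the core, each stretch reads 5′ to 3′ on the strand of its gene, and positions count from 0 at the annotated start. The core of *Asns* began at position -23, in chr6:7693210-7693309 (minus strand), and that of *Trib3* at position 14, in chr2:152344028-152344057 (minus strand).
Asns: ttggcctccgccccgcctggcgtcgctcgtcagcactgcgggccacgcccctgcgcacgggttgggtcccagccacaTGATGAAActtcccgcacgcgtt
Trib3: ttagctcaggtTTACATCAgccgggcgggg

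The same core stood in the windows of 5 of 13 cytosolic tRNA synthetase genes (38.5%) and of 2 of the 13 pathway genes that had a window and passed the test described here. A match is a string of letters and does not show that a factor bound there. The 4 synthetase stretches shown lie at chr6:55037960-55037989 for *Gars*, chr13:49682126-49682155 for *Iars* and chr4:129189895-129189924 for *Yars*, all on the plus strand, and at chr15:11399655-11399684 for *Tars* on the minus strand. These 2 genes were *Nupr1*, at chr7:126625562-126625591, and *Slc1a4*, at chr11:20332699-20332728, both on the minus strand. Set side by side, *Iars*, *Tars*, *Nupr1* and *Slc1a4* read TTGCATCA, *Yars* reads the same core on the other strand, and *Gars* alone differs, with TTTCATCA. The other synthetase gene with the core, *Aars*, held both forms and is not shown.
Gars: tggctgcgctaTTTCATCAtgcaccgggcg
Iars: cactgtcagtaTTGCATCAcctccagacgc
Tars: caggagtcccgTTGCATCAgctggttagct
Yars: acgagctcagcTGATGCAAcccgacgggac
Nupr1: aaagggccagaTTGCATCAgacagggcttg
Slc1a4: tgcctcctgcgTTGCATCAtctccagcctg

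None of the 10 genes passed the test between L-MSCs and control MSCs. The test was limma on log2(FPKM + 1) after median-of-ratios scaling, and a gene passed where its p-value, adjusted by Benjamini-Hochberg over all 11056 genes tested, did not exceed 0.05. Over those genes 5.81% passed, 285 higher (2.58%) and 357 lower (3.23%) in L-MSCs, and the count of 0 among 10 is to be read against that share. With a log2 fold change of at least 1 also required, 0 of the 10 genes and 5.08% of all genes tested passed. At an unadjusted p of at most 0.05, 1 of the 10 genes passed, *Psat1*, against 21.2% of all genes tested. The log2 fold change was above 0 for 4 genes and below 0 for 6, and its median was -0.12, against -0.01 over all genes tested. The unadjusted 95% interval lay between -1 and 1 for 6 of the 10 genes, and for the other 4 it reached past -1 or 1, so that a change of that size lay within the interval. Since these are values from bulk RNA, a lower level can mean fewer cells that express a gene or less RNA per cell, and the 2 cannot be told apart. Fold changes on this scale understate the change of genes at low levels.

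**Figure D1:**
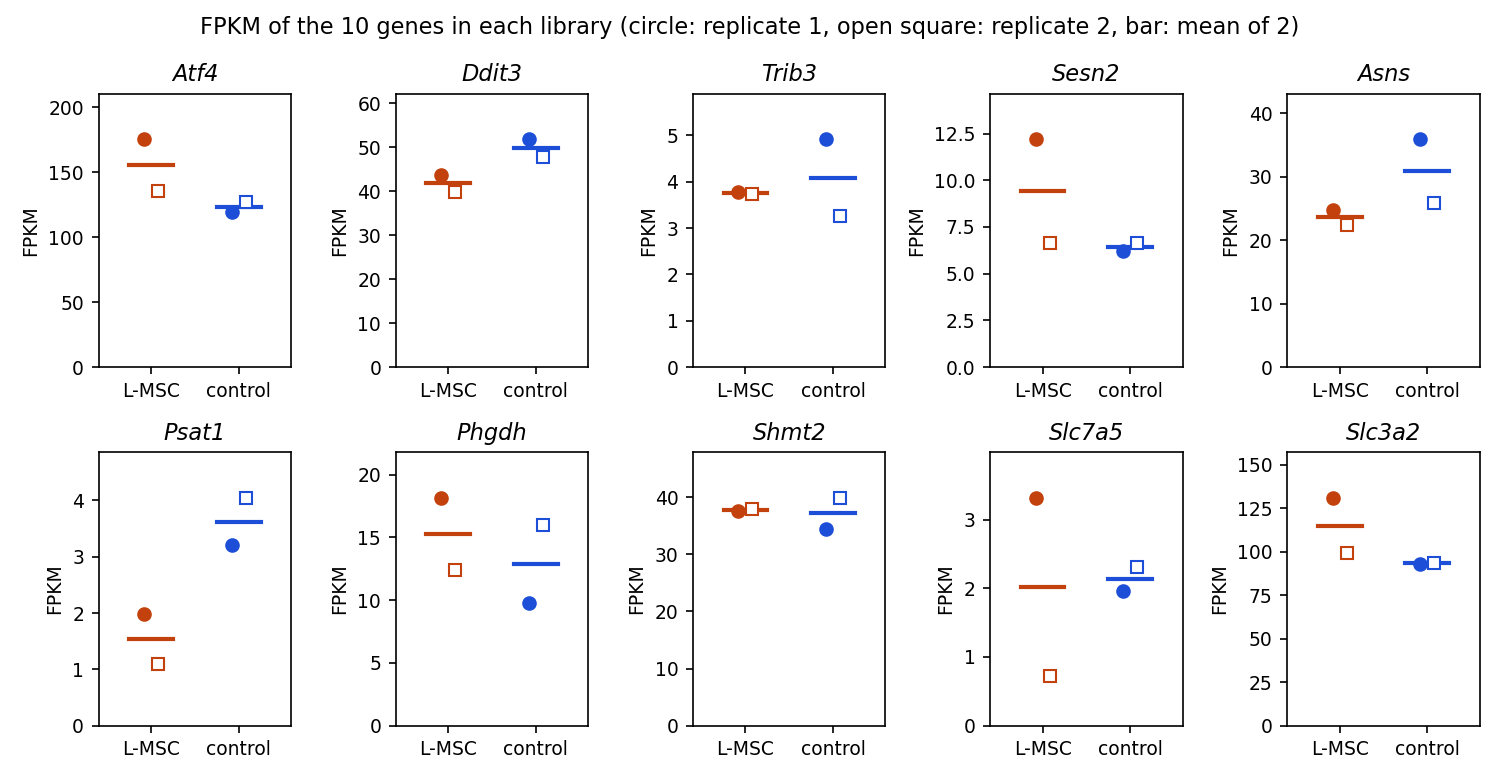
FPKM as deposited (vertical axis, each panel from 0) of the 10 genes in 2 L-MSC libraries (left) and 2 control libraries (right), with circles for replicate 1, open squares for replicate 2 and a bar at the mean. *Psat1*, *Asns* and *Ddit3* lie below control in both L-MSC libraries and *Atf4* and *Slc3a2* lie above. On these deposited values, 2394 of the 11056 genes tested lie below in this way and 3410 above. In 9 of the 10 panels the circle of L-MSC replicate 1 stands above the square of L-MSC replicate 2.

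*Atf4*, the factor itself, had the highest FPKM of the 10 genes in each library (chromosome 15, 80255184 to 80257545). It had an FPKM of 175.63 and 135.41 in L-MSCs, against 119.5 and 127.11 in control MSCs. Both L-MSC values were above both control values as deposited, and after scaling the groups overlapped, with 128.79 in L-MSC replicate 2 against 130.68 in control replicate 2. The log2 fold change was 0.22 (SE 0.22, 95% interval -0.27 to 0.70, adjusted p = 0.622 from limma). *Ddit3* encodes CHOP, a C/EBP family factor that acts downstream of ATF4 and is known for its part in cell death under stress (chromosome 10, 127290793 to 127296291). Its FPKM was 43.6 and 39.86 in L-MSCs, against 51.81 and 47.75 in control MSCs. The groups did not overlap, with L-MSCs lower, and the log2 fold change was -0.35 (SE 0.21, 95% interval -0.82 to 0.12, adjusted p = 0.385 from limma). *Ddit3* overlaps *Mbd6* and *Mars1* in the annotation, and the library kit does not mark strand, so that reads in the shared bases cannot be assigned.

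*Trib3* and *Sesn2* are targets of ATF4 that act on growth signalling. TRIB3 is a pseudokinase that restrains ATF4 and CHOP in a feedback loop, and its gene (chromosome 2, 152337425 to 152344060) was among the lowest of the 10 by mean FPKM. It had an FPKM of 3.78 and 3.74 in L-MSCs, against 4.92 and 3.26 in control MSCs, and the L-MSC values lay between the control values. Limma put the log2 fold change at -0.16 (SE 0.32, 95% interval -0.88 to 0.56, adjusted p = 0.827 from limma), and 0.085 without control replicate 1. *Sesn2* encodes Sestrin 2, a leucine sensor that restrains mTORC1 (chromosome 4, 132492804 to 132510456). Its FPKM was 12.2 and 6.62 in L-MSCs, against 6.2 and 6.62 in control MSCs. L-MSC replicate 1 stood alone above the other 3 libraries. On the log2 scale the difference was 0.35 (SE 0.33, 95% interval -0.39 to 1.08, adjusted p = 0.608 from limma), and it was -0.072 without that library.

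*Asns* encodes asparagine synthetase, which makes asparagine from aspartate and glutamine and is the textbook target of ATF4 (chromosome 6, 7675165 to 7693209). Its FPKM was 24.74 and 22.46 in L-MSCs, against 35.96 and 25.85 in control MSCs. Both L-MSC values were below both control values. The log2 fold change was -0.46 (SE 0.25, 95% interval -1.01 to 0.10, adjusted p = 0.329 from limma).

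*Phgdh*, *Psat1* and *Shmt2* encode enzymes of serine and glycine synthesis, and none of these genes passed. PHGDH takes the first step from glycolysis into serine (chromosome 3, 98313171 to 98339969). *Phgdh* had an FPKM of 18.16 and 12.42 in L-MSCs, against 9.79 and 16.01 in control MSCs, and the groups overlapped. Limma put the log2 fold change at 0.15 (SE 0.31, 95% interval -0.54 to 0.84, adjusted p = 0.832 from limma). Its sign turned to -0.18 without control replicate 1 and to -0.13 without L-MSC replicate 1. The annotation also holds a pseudogene, *Phgdh-ps1*, and reads of near-identical copies may be split between both entries.

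PSAT1 takes the next step, a transamination that uses glutamate (chromosome 19, 15905123 to 15925059). *Psat1* had an FPKM of 1.98 and 1.09 in L-MSCs, against 3.2 and 4.05 in control MSCs. Both L-MSC libraries were below both control libraries, and the mean FPKM was 1.54 ± 0.63 in L-MSCs and 3.63 ± 0.60 in control MSCs (SD, n = 2 each). The log2 fold change was -0.95 (SE 0.35, 95% interval -1.73 to -0.18), the largest in size of the 10. It missed the threshold after adjustment (adjusted p = 0.153 from limma), with adjusted p-values of 0.0750 to 0.393 over the 13 alternatives in which the gene was tested. SHMT2 is the mitochondrial enzyme that turns serine into glycine and a folate-bound carbon unit (chromosome 10, 127517123 to 127522444). *Shmt2* had an FPKM of 37.61 and 37.89 in L-MSCs, against 34.49 and 39.95 in control MSCs. The L-MSC values lay between the control values, and the log2 fold change was -0.077 (SE 0.22, 95% interval -0.56 to 0.40, adjusted p = 0.878 from limma). *Shmt2* overlaps *Ndufa4l2*, an abundant gene with an FPKM of 221.24 and 296.17 in L-MSCs and of 577.13 and 403.05 in control MSCs, and reads in the shared bases cannot be assigned without strand.

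*Slc7a5* and *Slc3a2* encode LAT1 and CD98, the light and heavy chains of a transporter of large neutral amino acids such as leucine. *Slc7a5* (chromosome 8, 121881146 to 121907686) had the lowest mean FPKM of the 10 genes. Its FPKM was 3.32 and 0.73 in L-MSCs, against 1.96 and 2.31 in control MSCs. The 2 L-MSC libraries lay on either side of the control libraries. On the log2 scale the difference was -0.26 (SE 0.45, 95% interval -1.25 to 0.74, adjusted p = 0.794 from limma), and it was 0.40 without L-MSC replicate 2. CD98 also pairs with other light chains and binds integrins. *Slc3a2* (chromosome 19, 8706882 to 8723369) had an FPKM of 130.99 and 98.95 in L-MSCs, against 93.04 and 93.46 in control MSCs. L-MSCs were above control MSCs as deposited and overlapped with them after scaling. Limma put the log2 fold change at 0.18 (SE 0.22, 95% interval -0.31 to 0.68, adjusted p = 0.693 from limma), and it was -0.044 without L-MSC replicate 1. The FPKM of the heavy chain over that of this light chain was 39.5 and 135.55 in L-MSCs, against 47.5 and 40.5 in control MSCs, so that L-MSC replicate 2 stood apart through its low *Slc7a5*.

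**Figure D2:**
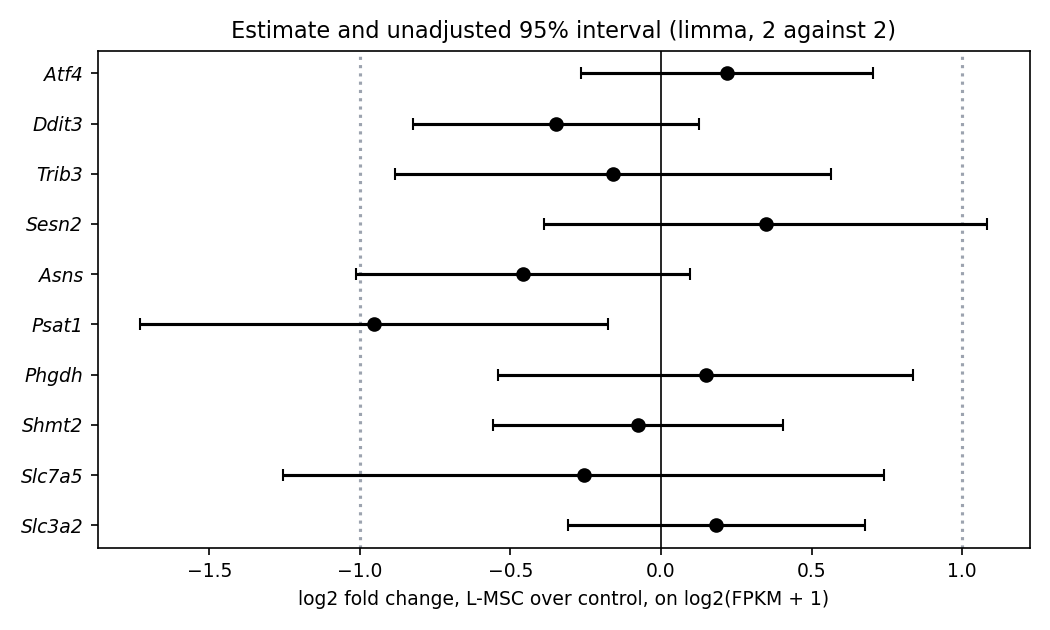
Log2 fold change of L-MSCs over control MSCs on log2(FPKM + 1) (horizontal axis) for the 10 genes, with limma's estimate as a point, its unadjusted 95% interval as a line and dotted lines at -1 and 1. The interval of *Psat1*, -1.73 to -0.18, is the one that leaves out 0, and the intervals of *Asns*, *Psat1*, *Sesn2* and *Slc7a5* reach past -1 or 1.

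The 10 genes spanned a wide range of levels. Mean FPKM over the 4 libraries was 139.41 for *Atf4*, 104.11 for *Slc3a2*, 45.8 for *Ddit3*, 37.5 for *Shmt2*, 27.3 for *Asns*, 14.1 for *Phgdh*, 7.91 for *Sesn2*, 3.93 for *Trib3*, 2.58 for *Psat1* and 2.08 for *Slc7a5*. *Atf4* ranked 602 of the 17457 genes by mean FPKM and *Slc7a5* ranked 9450. In this order, neighbours did not overlap in any library between *Slc3a2* and *Ddit3*, between *Asns* and *Phgdh* and between *Sesn2* and *Trib3*. The ranges of the other neighbours overlapped, although *Atf4* stood above *Slc3a2*, *Ddit3* above *Shmt2* and *Phgdh* above *Sesn2* within each of the 4 libraries. For *Shmt2* and *Asns*, *Trib3* and *Psat1*, and *Psat1* and *Slc7a5*, the order turned round in 1 library.

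The L-MSC libraries differed from each other in these genes in 1 direction. After scaling, L-MSC replicate 1 was above L-MSC replicate 2 for 10 of the 10 genes, against 51.1% of all genes tested, with a median log2 difference of 0.43, against 0.01 over all genes tested. This lean was not particular to the 10 genes. Over the 173 tested genes of the 9 pathway lists described below, the share was 66.5%. It was 85% for cytosolic tRNA synthetases, 78.6% for amino acid transporters and 50% for chaperones of the endoplasmic reticulum. Between the control libraries, replicate 1 was above replicate 2 for 4 of the 10 genes, against 51.0% of all genes tested, with a median difference of -0.06, against 0.01. The median log2 fold change of the 10 genes was 0.17 without L-MSC replicate 2 and -0.16 without L-MSC replicate 1. After scaling, L-MSCs lay below control MSCs in both libraries for 3 of the 10 genes, *Ddit3*, *Asns* and *Psat1*, and lay above for 0, against 27.2% below and 24.8% above, or 52% together, over all genes tested.

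Genes in and around the pathway were read from 9 lists with 190 other genes. Of these, 173 were tested, 9 rose and 8 fell in L-MSCs, against 5.81% of all genes tested that passed. They are called pathway genes for short, which does not mean that ATF4 directs each of them. The lists also hold mTORC1 sensing genes and genes of the ATF6 and XBP1 branches. At an unadjusted p of at most 0.05, 46 of the 173 passed, against 21.2% of all genes tested. By list, this count was 4 of 14 for transporters and 3 of 15 for serine, glycine and folate genes. It was 7 of 29 for mTORC1 sensing and 8 of 20 for chaperones, and the other lists have theirs below. The lists were written by hand and are described by counts and medians, without a test of any list. Over all genes tested, 2.58% rose and 3.23% fell, and the counts of each list below are to be read against these shares.

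The first list held 13 genes that act on eIF2α, its kinases, subunits and phosphatases, and 0 rose and 0 fell (median log2 fold change 0.11, 1 gene at an unadjusted p of at most 0.05). Without control replicate 1 or L-MSC replicate 2, 1 gene rose. *Ppp1r15a* encodes GADD34, which brings a phosphatase to eIF2α and so ends the response. Its FPKM was 478.46 and 303.35 in L-MSCs, against 299.39 and 92.54 in control MSCs. L-MSC values were above control values as deposited, and after scaling the groups overlapped, with 288.51 in L-MSC replicate 2 against 312.77 in control replicate 1. The difference did not pass (log2 fold change 1.09, adjusted p = 0.211 from limma). *Eif2s3x*, which encodes the gamma subunit of eIF2, had a log2 fold change of 0.20 (adjusted p = 0.692 from limma).

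Among factors and stress genes that work with ATF4, 22 of 25 genes were tested, 3 rose and 1 fell, and the median log2 fold change was 0.58. At an unadjusted p of at most 0.05, 11 of the 22 passed, against 21.2% of all genes tested. The count that rose was 7 without control replicate 1 and 2 without control replicate 2 or L-MSC replicate 1. *Ddit4* encodes REDD1, an inhibitor of mTORC1. It had an FPKM of 41.88 and 62.75 in L-MSCs, against 6.95 and 5.23 in control MSCs, with no overlap (log2 fold change 2.80, SE 0.27, adjusted p = 0.00121 from limma). *Cebpd*, which encodes the factor C/EBPδ, rose in both L-MSC libraries, to an FPKM of 14.69 and 21.36, against 2.04 and 3.26 in control MSCs (log2 fold change 2.29, SE 0.31, adjusted p = 0.00447 from limma). *Nupr1* encodes a small stress-induced chromatin protein and its window holds the core. It fell to an FPKM of 708.18 and 804.76 in L-MSCs, against 3197.26 and 2027.56 in control MSCs (log2 fold change -1.86, SE 0.27, adjusted p = 0.00546 from limma). The called genes of this list thus moved in both directions.

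*Stc2*, the gene of a secreted glycoprotein, was named after its values were seen and also rose, with an FPKM of 2.09 and 4.8 in L-MSCs, against 0.5 and 0.17 in control MSCs (log2 fold change 1.62, adjusted p = 0.0453 from limma). That call was lost without control replicate 2 (adjusted p = 0.148 from limma), as TPM and with a pseudocount of 0.1. The most abundant genes of the list that did not pass were *Sqstm1*, which encodes the autophagy receptor p62, with a log2 fold change of 0.72 (adjusted p = 0.0980 from limma), and *Ndrg1*, with 0.76 (adjusted p = 0.0941 from limma). *Eif4ebp1*, named after its values were seen, had 0.76 (adjusted p = 0.0598 from limma). After scaling, L-MSCs lay above control MSCs in both libraries for 11 of the 22 tested genes and below for 2, against 24.8% and 27.2% of all genes tested.

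Of 26 immediate-early genes, which respond rapidly to many signals, 6 rose and 0 fell in L-MSCs, against 2.58% of all genes tested that rose. The log2 fold change was below 0 for 5 of the 26, and its median was 0.88. The largest called changes were those of *Myc* (1.99), *Ier3* (1.76) and *Fosb* (1.72), and *Fos* (1.39) and *Egr1* (1.40) did not pass. Replicate 1 was above replicate 2 for 23 of the 26 genes in L-MSCs and for 25 of the 26 in control MSCs, against 51.1% and 51.0% of all genes tested. The count that rose was 14 without control replicate 1, 0 without control replicate 2, 3 without L-MSC replicate 1 and 12 without L-MSC replicate 2, and it was 0 with no variance trend in limma, where 15 genes had an unadjusted p of at most 0.05. The part of this difference in the values of *Ppp1r15a*, *Atf4* and the other stress genes was not tested.

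Of 21 amino acid transporters other than LAT1 and CD98, 14 were tested, 1 rose and 1 fell (median log2 fold change 0.15), and the count that rose was 2 without control replicate 1 and 3 without L-MSC replicate 2. *Slc43a1* encodes LAT3, which carries large neutral amino acids without a heavy chain. It rose to an FPKM of 16.45 and 10.86 in L-MSCs, against 2.08 and 2.3 in control MSCs (log2 fold change 2.09, SE 0.32, adjusted p = 0.00672 from limma). *Slc1a4* encodes ASCT1, a carrier of alanine, serine and cysteine. It fell to an FPKM of 21.72 and 26.9 in L-MSCs, against 47.13 and 54.86 in control MSCs (log2 fold change -1.14, SE 0.22, adjusted p = 0.0196 from limma). That call was lost without control replicate 2 (adjusted p = 0.0652 from limma) and without L-MSC replicate 1 (adjusted p = 0.0688 from limma). The most abundant transporters of the list, *Slc1a5* (log2 fold change 0.02) and *Slc6a6* (0.22), did not pass. *Slc38a2*, named after its values were seen, lay higher and did not pass (log2 fold change 0.95, adjusted p = 0.0684 from limma). After scaling, L-MSCs lay above control MSCs in both libraries for 5 of the 14 genes and below for 3, against 24.8% and 27.2% of all genes tested.

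Of 18 other genes of serine, glycine and folate metabolism, 15 were tested, 0 rose and 1 fell (median log2 fold change 0.01). *Mthfd2* encodes the mitochondrial enzyme that takes up the carbon unit released by SHMT2. It fell to an FPKM of 6.06 and 3.27 in L-MSCs, against 14.6 and 15.26 in control MSCs (log2 fold change -1.63, SE 0.32, adjusted p = 0.0191 from limma, 0.0562 without control replicate 2). *Psph*, whose product completes serine synthesis after PSAT1, was named after its values were seen. It had an FPKM of 5.73 and 5.44 in L-MSCs, against 8.23 and 12.8 in control MSCs, and did not pass (log2 fold change -0.87, adjusted p = 0.134 from limma). *Aldh1l1*, also named after its values were seen, lay higher and did not pass (log2 fold change 0.89, adjusted p = 0.229 from limma). After scaling, L-MSCs lay above control MSCs in both libraries for 2 of the 15 genes and below for 2, against 24.8% and 27.2% of all genes tested. *Gcsh* (log2 fold change 0.13) and *Sfxn1* (0.04), the most abundant of the list that did not pass, encode a protein of glycine cleavage and the mitochondrial serine carrier.

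Other enzymes of amino acid metabolism numbered 25, of which 23 were tested. Of these, 3 rose and 0 fell (median log2 fold change 0.13), against 2.58% and 3.23% of all genes tested. At an unadjusted p of at most 0.05, 12 passed, against 21.2% of all genes tested. After scaling, L-MSCs lay above control MSCs in both libraries for 8 of the 23 and below for 8, against 24.8% and 27.2% of all genes tested. The genes that rose handle sulfur amino acids or glutamine. *Cdo1* encodes cysteine dioxygenase, which breaks cysteine down, and had an FPKM of 322.55 and 239.12 in L-MSCs, against 54.73 and 53.04 in control MSCs (log2 fold change 2.24, SE 0.22, adjusted p = 0.00121 from limma). *Cbs* encodes cystathionine β-synthase, which joins homocysteine to serine. Its FPKM was 3.75 and 1.54 in L-MSCs, against 0.14 and a listed 0 in control MSCs (log2 fold change 1.66, adjusted p = 0.0438 from limma), and the call was lost without control replicate 1 (adjusted p = 0.0513 from limma) and without control replicate 2 (adjusted p = 0.125 from limma), as TPM, after quantile normalization and with a pseudocount of 0.1. *Glul* encodes glutamine synthetase and had an FPKM of 165.5 and 154.65 in L-MSCs, against 58.32 and 71.47 in control MSCs (log2 fold change 1.19, SE 0.21, adjusted p = 0.0117 from limma). *Pycr1* and *Aldh18a1*, which encode enzymes of proline synthesis, were named after their values were seen. The FPKM of *Pycr1* was 1.71 and 9.74 in L-MSCs, against 16.87 and 18.51 in control MSCs, and did not pass (log2 fold change -1.88, adjusted p = 0.0645 from limma). That of *Aldh18a1* was 15.93 and 10.0 in L-MSCs, against 29.29 and 22.04 in control MSCs, and did not pass (log2 fold change -1.05, adjusted p = 0.0693 from limma). The groups did not overlap for either gene. Other uncalled genes of the list lay the other way. Among them were *Prodh* (log2 fold change 1.38, adjusted p = 0.104 from limma) and *Bckdhb* (0.91, adjusted p = 0.121 from limma), also named after their values were seen. The count of genes of the list that fell was 1 without control replicate 1, L-MSC replicate 1 or L-MSC replicate 2, and 2 at a minimum FPKM of 5. *Oat* (log2 fold change 0.10) and *Mat2a* (0.32) were the most abundant genes of the list that did not pass.

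The synthetases that charge tRNAs in the cytosol include several genes with the core in their windows. Of 20 tested 0 rose and 0 fell, and none reached an unadjusted p of 0.05 in limma, against 21.2% of all genes tested. The log2 fold change was above 0 for 6 and below 0 for 14, with a median of -0.26. After scaling, L-MSCs lay below control MSCs in both libraries for 10 of the 20 and above for 3, against 27.2% and 24.8% of all genes tested. Among the 4 printed with their core, *Yars* had the lowest value, -0.60, and *Iars* the highest, 0.18. *Nars* (-0.39, adjusted p = 0.336 from limma) and *Kars* (-0.19, adjusted p = 0.659 from limma) were the most abundant. Of the 17 mitochondrial synthetases, 0 rose and 0 fell, 0 passed at an unadjusted p of at most 0.05, the median was 0.07, and none of the 14 with a window held the core. *Fars2* (0.05) and *Cars2* (-0.07) were the most abundant of these.

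Amino acid sensing by mTORC1 was read from 30 genes, of which 29 were tested. Of these, 2 rose and 2 fell (median log2 fold change 0.01), against 2.58% and 3.23% of all genes tested. *Sesn1* encodes Sestrin 1, a relative of Sestrin 2 that binds the same partners. It rose to an FPKM of 58.49 and 65.77 in L-MSCs, against 16.89 and 18.15 in control MSCs (log2 fold change 1.67, SE 0.22, adjusted p = 0.00351 from limma). The FPKM of *Sesn1* over that of *Sesn2* was 4.79 and 9.94 in L-MSCs, against 2.72 and 2.74 in control MSCs. *Deptor*, the gene of another inhibitor of mTOR, had an FPKM of 18.82 and 20.92 in L-MSCs, against 5.97 and 5.65 in control MSCs (log2 fold change 1.52, SE 0.26, adjusted p = 0.00999 from limma).

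*Sec13* and *Lamtor2* (named after its values were seen) encode subunits of complexes that pass amino acid signals to mTORC1, and SEC13 also serves in protein export from the endoplasmic reticulum. *Sec13* fell to an FPKM of 80.14 and 96.34 in L-MSCs, against 145.16 and 168.85 in control MSCs (log2 fold change -0.93, adjusted p = 0.0319 from limma). *Lamtor2* fell to 161.19 and 177.43 in L-MSCs, against 308.26 and 280.81 in control MSCs (log2 fold change -0.90, adjusted p = 0.0316 from limma). Both calls were lost without scaling between libraries, as TPM and after quantile normalization. They were also lost without control replicate 2 (adjusted p = 0.100 for *Sec13* and 0.0538 for *Lamtor2* from limma) and without L-MSC replicate 1 (adjusted p = 0.137 and 0.110, in the same order). *Lamtor2* was lost without control replicate 1 as well (adjusted p = 0.0853 from limma). *Lamtor5* (log2 fold change -0.30) and *Rheb* (-0.51), the most abundant of the list that did not pass, were also below 0.

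Chaperones and other genes of the ATF6 and XBP1 branches of the endoplasmic reticulum stress response, which run beside the branch of ATF4, stood at a median log2 fold change of -0.48. Of 20 tested 0 rose and 3 fell, against 3.23% of all genes tested that fell, and 18 of the 20 had a value below 0. After scaling, L-MSCs lay below control MSCs in both libraries for 14 and above for 0, against 27.2% and 24.8% of all genes tested. *Manf*, which encodes a secreted factor of the endoplasmic reticulum, fell to an FPKM of 89.93 and 76.86 in L-MSCs, against 235.97 and 185.68 in control MSCs (log2 fold change -1.42, SE 0.22, adjusted p = 0.00738 from limma). *Creld2* fell to 49.12 and 44.24 in L-MSCs, against 127.62 and 90.3 in control MSCs (log2 fold change -1.29, SE 0.24, adjusted p = 0.0146 from limma). *Pdia6*, the gene of a disulfide isomerase, had an FPKM of 105.29 and 111.71 in L-MSCs, against 227.27 and 171.52 in control MSCs. Its log2 fold change was -0.96 (adjusted p = 0.0338 from limma), and the call was lost without control replicate 1 (adjusted p = 0.120 from limma), without L-MSC replicate 1 (adjusted p = 0.0839 from limma) and under the 3 other scalings. *Hspa5*, the gene of the chaperone BiP, did not pass (log2 fold change -0.49, adjusted p = 0.415 from limma), and neither did *Calr* (-0.49, adjusted p = 0.187 from limma).

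**Figure D3:**
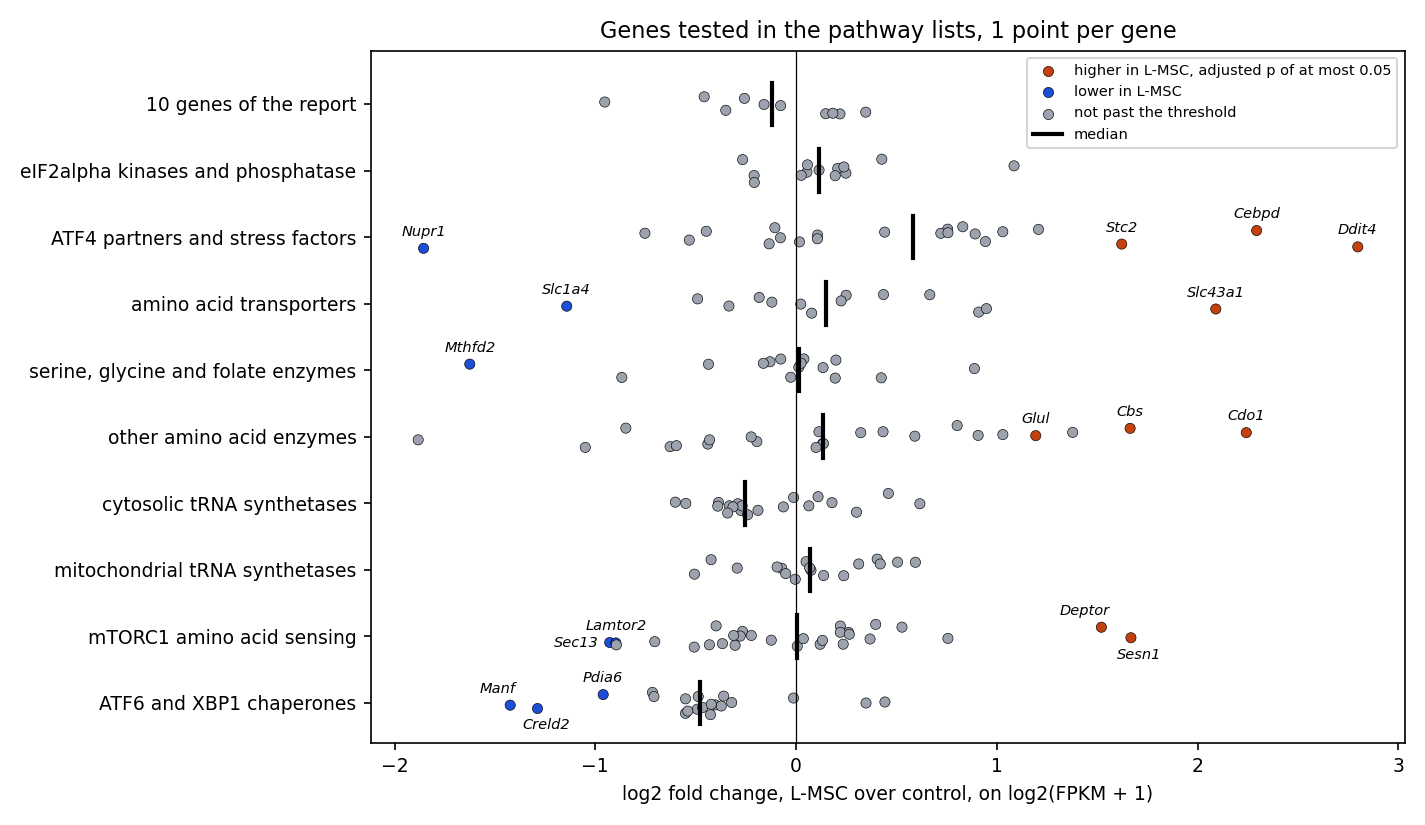
Log2 fold change of L-MSCs over control MSCs on log2(FPKM + 1) (horizontal axis) for the tested genes of the 10-gene set and of 9 pathway lists (rows), 1 point per gene, with a bar at the median and colours for genes that passed at an adjusted p of at most 0.05. The 10 genes lie between -0.95 and 0.35 with 0 coloured, while *Ddit4* at 2.80 and *Nupr1* at -1.86 pass in opposite directions.

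**Figure D4:**
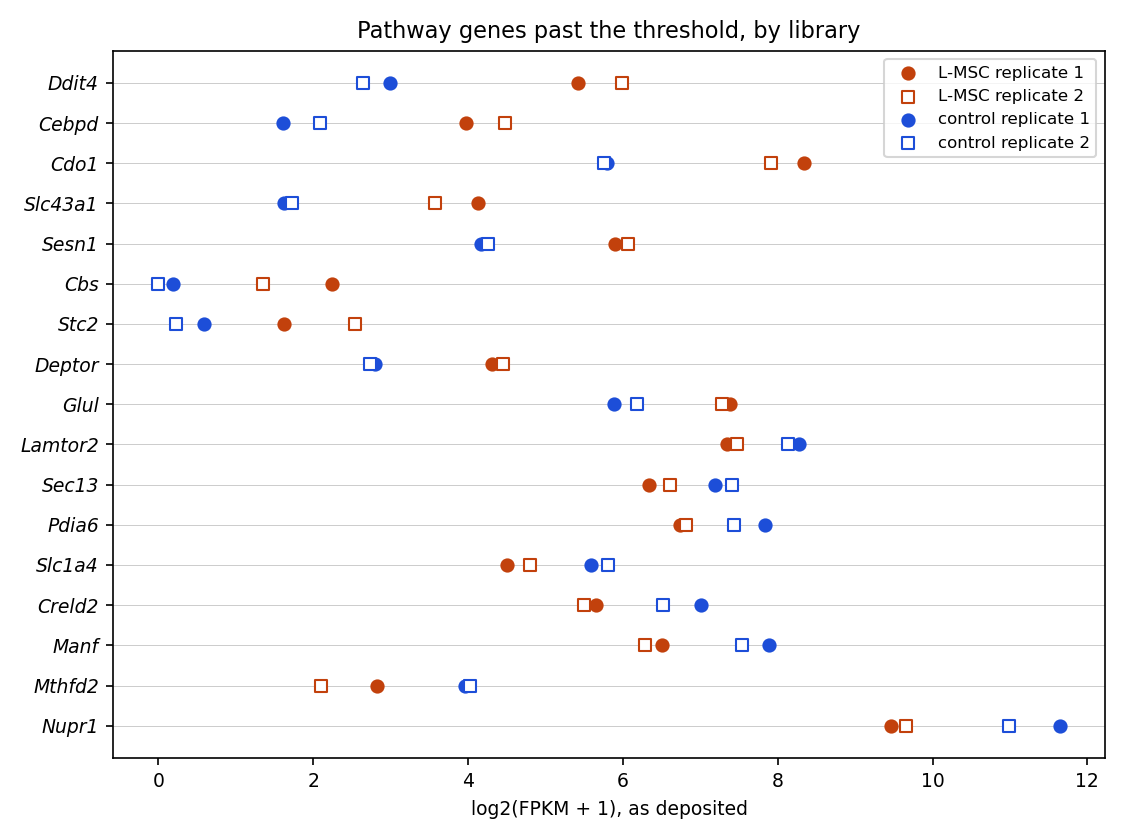
Log2(FPKM + 1) as deposited (horizontal axis) of the 17 pathway genes that passed, 1 row per gene, in 2 L-MSC libraries and 2 control libraries, with circles for replicate 1 and open squares for replicate 2. In each of the 17 rows the libraries of the 2 groups do not overlap, and the 9 genes that rose take the upper rows and the 8 that fell the lower rows. The 17 genes were picked by the test between these same libraries, so the gaps are no separate support for it. As deposited, L-MSCs lie above control MSCs without overlap for 3410 of the 11056 genes tested and below for 2394.

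Markers of the sort and of other cell types were read in the same libraries. The FPKM of *Ly6a*, the gene of Sca-1, was 1702.3 and 1985.06 in L-MSCs, against 1055.84 and 1711.45 in control MSCs, and that of *Pdgfra* was 87.12 and 92.95 in L-MSCs, against 66.84 and 72.65 in control MSCs, while *Ptprc* and *Pecam1* were each below 1. The summed FPKM of 6 erythroid markers was 10.1 and 6.26 in L-MSCs, against 238.71 and 149.75 in control MSCs. Of 4 tested markers 4 fell past the threshold, against 3.23% of all genes tested, and *Slc4a1* was listed at 0 in 3 libraries. The summed FPKM of 8 B lineage markers was 6.54 and 1.90 in L-MSCs, against 2.07 and 2.06 in control MSCs, with *Rag1* listed at 0 in the 4 libraries. For 8 myeloid markers the sum was 29.2 and 12.8 in L-MSCs, against 19.3 and 28.4 in control MSCs, and *Adgre1* was at most 0.01. The sums of 6 endothelial markers lay between 2.35 and 4.09, those of 6 osteoblast markers between 601 and 1410 and those of 5 chondrocyte markers between 3646 and 5410. *Ibsp* made up most of each osteoblast sum and *Comp* most of each chondrocyte sum. In both lists 5 genes were tested, and all 5 had a log2 fold change below 0. After scaling, L-MSCs lay below control MSCs in both libraries for 4 of the osteoblast and 3 of the chondrocyte genes, against 27.2% of all genes tested. The osteoblast and chondrocyte lists each had 1 gene that fell past the threshold, *Bglap2* and *Acan*, against 3.23% of all genes tested. The part of these markers in the values of the 10 genes was not tested. Summed FPKM was 559601 to 588926 per library and scale factors were 0.957 to 1.05, and 13623 to 14704 genes were above 0. FPKM carry no read totals, so that the depth of the libraries is unknown and no counting interval is given.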

How the data were processed

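RNA of sorted MSCs was prepared by the authors with SMART-Seq v4, which does not mark strand, and sequenced as paired reads of 100 bases. Per the submitters' processing notes and the methods, reads were filtered with SOAPnuke, aligned with HISAT2 2.0.4 and Bowtie2 2.2.5 and quantified with RSEM 1.2.8 against GRCm38.p6. The deposited values are FPKM with 2 decimals, 1 column per library. FPKM is set relative to the library's total, and the methods of the study name no further scaling of FPKM between libraries. A deposited column of log2 fold changes holds the authors' own comparison and was not used.

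Median-of-ratios factors were applied, genes that reached an FPKM of 1 in 2 or more libraries were kept, and log2(FPKM + 1) was compared with limma 3.58.1 in R 4.3.3 (lmFit, eBayes with trend). Genes were called where the Benjamini-Hochberg adjusted p did not exceed 0.05, and a log2 fold threshold of 1, as in the methods of the study, was an alternative. Simulated data with known changes, drawn with normal noise of the fit's own spread, served to check that the code returns such changes. They cannot show that the 4 libraries meet the model. With 2 against 2 libraries an exact permutation test cannot go below p = 0.333, so p-values rest on the spread pooled by limma, between pools labelled as biological replicates. Named were the 10 genes, and from each other list up to 3 called genes with the largest change and up to 2 uncalled genes with the highest FPKM. Some other genes of the pathway lists were named after their values were seen and are marked so. The 10 genes, the lists and the motif were chosen with earlier results of these data known. Promoter windows and positions are from RefSeq (GRCm38.p6). Alternatives were other scalings (none, TPM, quantile), other pseudocounts (0.1, 0.5), other filters (none, FPKM of 5), eBayes without trend or made robust, a block for the replicate number, the fold threshold and each library left out.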

Additional observations from a re-analysis of the deposited data

How the results depend on the processing

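None of the 10 genes was called under any alternative run. The count of genes higher in L-MSCs (285) was 0 with no filter on low values, 148 with no variance trend and 695 with the replicate number as a block, and 192 to 441 with 1 library left out. The count of genes lower (357) was 218 without scaling and 196 as TPM, which gave 314 and 251 higher, 0 with no filter, 128 with no variance trend, 776 with the replicate block, and 196 to 575 with 1 library left out. The count of called pathway genes (17) was 0 with no filter, 9 with no variance trend, 33 with the block and 11 to 23 with 1 library left out. With no filter, 17457 genes were tested and 2324 passed at an unadjusted p of at most 0.05. The median log2 fold change of the 10 genes was -0.18 to 0.17 with 1 library left out and 0.15 at a minimum FPKM of 5, which left 7 of them. Signs turned for *Shmt2* (0.024 without scaling, 0.035 after quantile normalization) and, with 1 library left out, for *Phgdh* (-0.18 to 0.45), *Trib3* (-0.42 to 0.085), *Sesn2* (-0.072 to 0.76), *Slc7a5* (-0.92 to 0.40) and *Slc3a2* (-0.044 to 0.40). The cause of these shifts was not tested. The groups share replicate numbers 1 and 2, with no sign in the labels that a number pairs libraries. The difference of replicate 1 from replicate 2 had a correlation of 0.10 between the groups across genes. With the block, 0 of the 10 genes were called and *Psat1* had an adjusted p of 0.0750 from limma. With no variance trend, the calls of *Slc1a4*, *Glul*, *Creld2*, *Stc2*, *Cbs*, *Sec13*, *Lamtor2* and *Pdia6* and of the 6 immediate-early genes were lost. With the block, 9 of the stress factors and 14 of the immediate-early genes were higher, and 6 of the other amino acid enzymes were higher and 2 lower. The depth of each library is unknown, and of the 10 genes *Trib3*, *Psat1* and *Slc7a5* were the lowest.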
